A study of Homo sapiens with 6 samples.

Results

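Leupaxin (*LPXN*), its relative paxillin (*PXN*) and 6 genes of proteins that work beside them in focal adhesions were followed on expression arrays of HEK293T cells that over-expressed *USF1*. The members are all probesets that the platform annotation assigns to *LPXN*, *PXN*, vinculin (*VCL*), talin (*TLN1*), zyxin (*ZYX*), the alpha-actinins *ACTN1* and *ACTN4* and focal adhesion kinase (*PTK2*), which came to 10 of the 16569 probesets deposited. None of the 10 is shared with another gene, *ZYX* and *PTK2* have 2 probesets each, and the other genes have 1. HEK293T cells are a human embryonic kidney line with the large T antigen of SV40. Its cells were transiently transfected with a plasmid holding the coding region of *USF1*, an E-box-binding transcription factor, or with the empty plasmid, and total RNA was taken 48 hours later for 3 USF1 and 3 Empty vector arrays. All arrays thus share the cell line, the transfection and the time, the expression was transient, and what share of the cells took up the plasmid is not stated. It is also not stated that the 3 arrays of a group stem from 3 transfections, so any p-value reflects no more than how these arrays differed, which may be technical. The gene set was chosen by the fall of *LPXN* in this same contrast, USF1 against Empty vector, which was known when the set was drawn up, so the differences of the 10 probesets are given as a description, and how many of them the fit across all probesets called is given only beside the share called over the whole array.

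Focal adhesions are the places where a cell holds on to the matrix around it. Integrins span the membrane and bind the matrix outside, talin binds the inner tails of integrins and switches them on, and vinculin and the alpha-actinins tie talin to actin filaments. Paxillin is a scaffold at the membrane side of the adhesion that carries LD motifs, which bind vinculin and focal adhesion kinase, and LIM domains, which direct it to adhesions. Leupaxin has the same layout and is best known from blood cells, macrophages and osteoclasts, where it binds the kinase PYK2. Zyxin, another LIM protein, gathers where adhesions bear tension.

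USF1 binds the palindromic E-box CACGTG, so the promoters of the genes are given first. The table of RefSeq promoters used here, on GRCh38.p14, held 13 windows for 7 of the 8 genes, each with 250 bases before and 50 after an annotated start. The entry missing is that of *PTK2*. *LPXN* has 2 windows on the minus strand, at chr11:58578084-58578383 and chr11:58575807-58576106, and so does *PXN*, at chr12:120265681-120265980 and chr12:120250114-120250413. The fifth sequence, of *ACTN1* window 3 at chr14:68977517-68977816 on the minus strand, is shown for the CArG box in it, the motif of serum response factor, which drives many actin genes. Capitals mark every CANNTG, the general form of the E-box, and the CArG box.
LPXN window 1: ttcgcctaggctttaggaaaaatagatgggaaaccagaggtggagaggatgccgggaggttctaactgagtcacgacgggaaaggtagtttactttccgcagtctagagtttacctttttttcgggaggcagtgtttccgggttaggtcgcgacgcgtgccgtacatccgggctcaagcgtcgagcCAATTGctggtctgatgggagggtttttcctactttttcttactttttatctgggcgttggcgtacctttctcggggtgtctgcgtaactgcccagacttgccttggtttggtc
LPXN window 2: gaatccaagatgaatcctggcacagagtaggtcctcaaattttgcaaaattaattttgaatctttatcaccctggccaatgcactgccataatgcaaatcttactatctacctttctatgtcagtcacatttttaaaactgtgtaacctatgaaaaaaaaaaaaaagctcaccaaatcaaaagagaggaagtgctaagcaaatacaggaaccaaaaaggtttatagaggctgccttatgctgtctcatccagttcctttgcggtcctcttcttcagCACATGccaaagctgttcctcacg
PXN window 1: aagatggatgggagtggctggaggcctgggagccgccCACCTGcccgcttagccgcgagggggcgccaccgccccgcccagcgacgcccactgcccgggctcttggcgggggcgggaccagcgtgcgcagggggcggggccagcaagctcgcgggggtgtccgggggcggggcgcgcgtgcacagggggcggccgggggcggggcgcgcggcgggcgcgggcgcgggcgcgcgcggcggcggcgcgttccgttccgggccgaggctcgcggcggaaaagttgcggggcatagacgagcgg
PXN window 2: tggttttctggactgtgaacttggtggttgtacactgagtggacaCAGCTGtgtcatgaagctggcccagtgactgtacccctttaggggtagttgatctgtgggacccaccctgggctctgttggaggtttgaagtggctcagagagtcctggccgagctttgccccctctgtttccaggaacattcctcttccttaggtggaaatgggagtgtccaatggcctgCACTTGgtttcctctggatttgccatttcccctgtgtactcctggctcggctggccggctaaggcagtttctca
ACTN1 window 3: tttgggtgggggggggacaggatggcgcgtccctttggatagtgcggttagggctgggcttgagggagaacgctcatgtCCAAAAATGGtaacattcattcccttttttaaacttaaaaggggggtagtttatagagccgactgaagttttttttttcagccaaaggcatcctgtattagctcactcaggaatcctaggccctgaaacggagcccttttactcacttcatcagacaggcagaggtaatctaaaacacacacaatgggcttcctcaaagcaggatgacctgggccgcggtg

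CACGTG was in 0 of the 13 windows. It was in 7.26% of all 35116 windows. CANNTG, whose complement reads CANNTG too so that one search covers both strands, was in 9 of the 13 windows with 14 matches, and in 68.7% of all windows. The match of the first *LPXN* window was CAATTG, with its first base 64 bases before the start, and that of the second was CACATG, from base 27 after it. *PXN* held CACCTG in its first window and CAGCTG and CACTTG in its second. *VCL*, *TLN1* and *ZYX* have 1 window each, none with a match. *ACTN4* held the most, with 4 matches in its second window, of which 2 overlap. A CArG box stood in 1 of the 13 windows and in 1.29% of all windows. The windows of a gene share that gene, and the match of a few letters is a description of the sequence and not of binding. The 2 *LPXN* windows also differed in base composition, with 51.7% G and C and 19 CpG in the first against 39% and 2 in the second, where the median of all windows was 58.7% and 14. The first *PXN* window had 81.3% and 50.

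**Figure D1:**
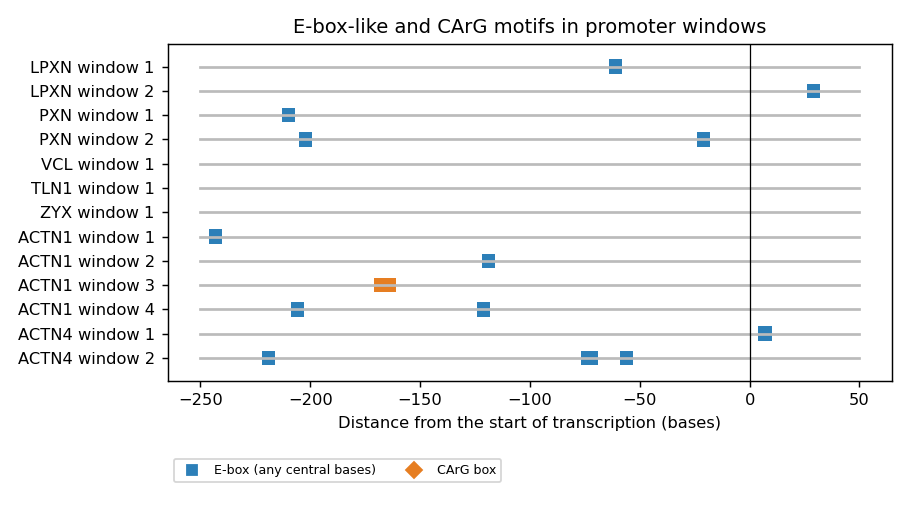
Matches to CANNTG (blue) and to the CArG box (orange) in the 13 promoter windows of 7 genes (rows), drawn to scale by distance in bases from the annotated start (horizontal axis, grey lines from 250 bases before to 50 after). 9 windows hold a blue match, 1 holds an orange one, and those of *VCL*, *TLN1* and *ZYX* hold none.

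The arrays were comparable in scale but not in every control. Medians lay between 5.88 and 6 on the log2 scale. The array held 1 probeset for *USF1* itself, at 4.68 to 4.94 in USF1 cells and 4.37 to 5.14 in Empty vector cells. Where its probes lie in the transcript is not given, so it cannot check for RNA from the plasmid. The authors report that over-expression of the protein was checked by western blot. Empty vector replicate 1 stood apart at the ribosomal RNA control probesets, with an 18S 5' value of 2.95 where the other arrays had 7.28 to 8.8. It also stood apart over all probesets. The SD of its differences from Empty vector replicates 2 and 3 was 0.336 each, against 0.182 between those 2 arrays. Among pairs of USF1 arrays that SD was 0.149 to 0.222. The actin 5' minus 3' value, which drops when RNA is degraded, was -1.34 in Empty vector replicate 1 and -1.04 in replicate 2, against -0.681 to -0.493 in the other arrays. Of 8 markers of HEK293 cells, 5 were measured. Over the arrays the neurofilament *NEFM* was at 10.07 to 10.58, vimentin (*VIM*) at 9.91 to 10.26 and *NEFL* at 7.87 to 8.16. *INA* was at 5.98 to 6.47. *EN2* was dim, at 4.43 to 4.75, above 13.3 to 20% of all probesets. Of the 5, 1 was called, *INA*, another neuronal filament gene, which fell by 0.39 on the log2 scale (SE 0.08, limma adjusted p-value = 0.024). *KRT8*, *KRT18* and *PAX2* are not analysed here. Of 14 leukocyte markers only *WAS* was measured, at 3.81 to 4.16, and of 8 fibroblast markers 0 were.

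*LPXN* was far lower in USF1 cells, while the other 7 genes of the set lay close to the Empty vector level. The log2 value of *LPXN* was 5.18, 5.08 and 5.05 in the 3 Empty vector arrays and 3.81, 3.79 and 3.34 in the 3 USF1 arrays. Each USF1 array lay below each Empty vector array, with a gap of 1.24 between the nearest of them, where the Empty vector arrays spanned 0.134 and the USF1 arrays 0.462. The means were 5.11 ± 0.07 (SD, n = 3 arrays) and 3.65 ± 0.26 (SD, n = 3), a log2 difference of -1.46 (SE 0.13, 95% interval from -1.76 to -1.16), or 2.75-fold lower. This made *LPXN* rank 3 among the falls of all 16569 probesets and rank 28 by size in either direction.

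The fall took *LPXN* to the bottom of the array. In Empty vector arrays 27.8 to 30% of all probesets had a lower value than *LPXN*, and in USF1 arrays 0.133 to 1.33% did. Whether *LPXN* was above background in USF1 cells was not tested, and near the lowest values of an array RMA differences are compressed, so how much transcript was left is not known from these values. In RNA from a whole culture, fewer cells with *LPXN* and less *LPXN* in each cell cannot be told apart. The difference was -1.42 without Empty vector replicate 1, -1.47 without Empty vector replicate 2 and -1.37 with the actin 5' minus 3' value as a covariate, and it ranged from -1.54 to -1.31 when each array was left out in turn. The part of RNA quality in it was not tested. *WAS*, the only leukocyte marker measured, had a limma difference of 0.167 (SE 0.09) with an adjusted p-value = 0.244, its value being the higher in USF1 cells. It is a dim probeset, above 2.51 to 7.3% of all probesets over the arrays, and nothing is read from it.

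**Figure D2:**
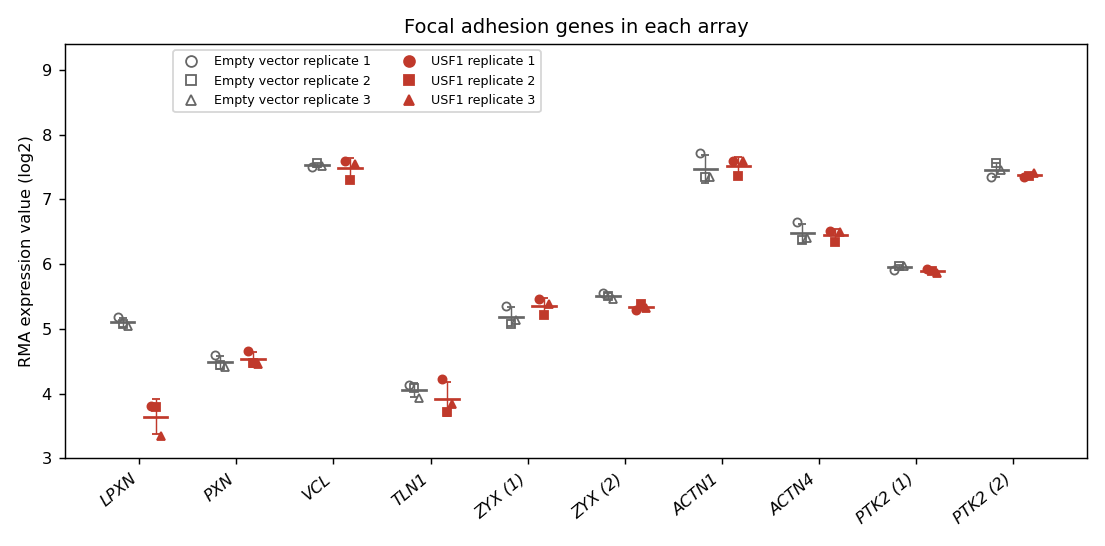
Log2 RMA values (vertical axis) of the 10 probesets of the 8 genes (horizontal axis) in each Empty vector array (open grey) and USF1 array (filled red), with the mean (bar) and SD (error bar) of 3 arrays; marker shape gives the replicate. *LPXN* is between 5.05 and 5.18 in Empty vector and between 3.34 and 3.81 in USF1 arrays, and the groups of all others but the second *ZYX* probeset overlap.

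Paxillin, the closest relative of leupaxin in the set, had similar values in both groups. *PXN* was at 4.6, 4.45 and 4.41 in Empty vector arrays and at 4.66, 4.47 and 4.46 in USF1 arrays. The groups overlap, and the difference was 0.04 (SE 0.10, 95% interval from -0.18 to 0.27), whose sign turned without USF1 replicate 1. The remaining gene of the family, *TGFB1I1* (Hic-5), a paxillin-like protein of smooth muscle and fibroblasts, was at 4.55, 4.31 and 4.65 in Empty vector and at 4.6, 4.04 and 4.14 in USF1 arrays. Its limma difference of -0.24 (SE 0.16) had an adjusted p-value = 0.322, and USF1 replicate 1 lay within the Empty vector range. *PTK2B*, which encodes the PYK2 kinase that leupaxin binds, is not analysed here.

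Focal adhesion kinase was measured by a pair of probesets that gave the same picture. The first had log2 values of 5.91, 5.97 and 5.97 in Empty vector and 5.93, 5.89 and 5.86 in USF1 arrays, and the second 7.35, 7.57 and 7.45 against 7.35, 7.36 and 7.41. Differences were -0.06 (SE 0.08) and -0.08 (SE 0.09), with groups that overlap in both. Their intervals ran from -0.24 to 0.13 and from -0.29 to 0.12. The sign of the first turned with arrays centred on their medians (0.014).

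Talin and vinculin, the link from integrins to actin, overlapped between the groups as well. *TLN1* was at 4.14, 4.09 and 3.93 in Empty vector and at 4.22, 3.71 and 3.84 in USF1 arrays, a difference of -0.13 (SE 0.14) with the widest interval of the set, from -0.44 to 0.18. Like *LPXN* it is a dim probeset, above 0.785 to 8.09% of all probesets in USF1 arrays. *VCL* was at 7.5, 7.57 and 7.52 in Empty vector and at 7.59, 7.3 and 7.55 in USF1 arrays. Here USF1 replicate 2 alone was low, the difference was -0.05 (SE 0.10), and without that array, or with arrays centred on their medians, its sign turned.

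The alpha-actinins, which bundle actin filaments and tie them to adhesions, had similar patterns over the arrays. *ACTN1* was at 7.72, 7.34 and 7.35 in Empty vector and at 7.6, 7.36 and 7.6 in USF1 arrays. *ACTN4* was at 6.65, 6.38 and 6.41 and at 6.52, 6.35 and 6.5. In both genes Empty vector replicate 1 had the highest value of all 6 arrays, and USF1 replicate 2 had the lowest of the USF1 arrays. Differences between the groups were 0.05 (SE 0.13) for *ACTN1* and -0.03 (SE 0.10) for *ACTN4*. The sign of *ACTN1* turned without Empty vector replicate 2 or 3, and that of *ACTN4* under 6 other settings, among them without Empty vector replicate 1 and with arrays centred on their medians.

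Zyxin was the one gene whose probesets disagreed. The first had log2 values of 5.35, 5.07 and 5.14 in Empty vector and 5.46, 5.21 and 5.38 in USF1 arrays, a difference of 0.16 (SE 0.11, 95% interval from -0.08 to 0.41). The second, a probeset of the type whose name marks probes similar to other transcripts, had 5.56, 5.51 and 5.46 against 5.3, 5.39 and 5.33, a difference of -0.17 (SE 0.08, 95% interval from -0.36 to 0.02). The groups overlap in the first and lie apart by 0.0674 in the second. A direction for *ZYX* cannot be given from these values.

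Counted over the set, 1 of 10 probesets, that of *LPXN*, passed limma at an adjusted p-value under 0.05. Over all probesets 11.9% passed in either direction and 7.6% passed with a lower value in USF1 cells. Groups did not overlap in 2 of the 10, *LPXN* and the second *ZYX* probeset, and in 36.1% of all probesets. As this contrast chose the set, nothing is read from these counts. The 9 probesets of the other 7 genes had differences of 0.0259 to 0.172 in size, 3 above and 6 below 0, and 8 of them were smaller than 0.166, the median size over all probesets. All 9 intervals span 0, from the narrow one of the first *PTK2* probeset to the wide one of *TLN1*, and a probeset whose interval spans 0 is not shown to be unchanged. Which array was highest was shared among these 9 probesets. USF1 replicate 1 was the highest USF1 array in 6 of 9 (43.3% of all probesets) and USF1 replicate 2 the lowest in 5 of 9 (35.6%), and Empty vector replicate 1 was the highest of its group in 6 of 9 (51.4%).

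**Figure D3:**
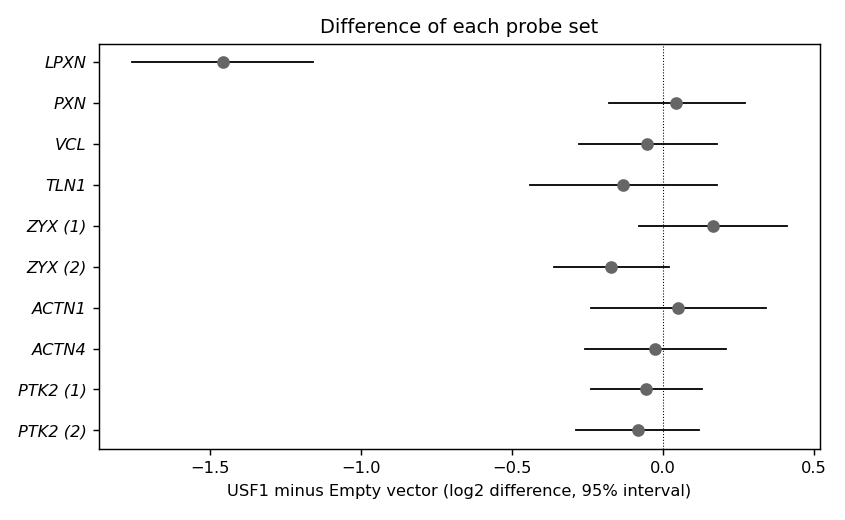
Mean of USF1 minus mean of Empty vector arrays on the log2 scale (horizontal axis, point) with its 95% interval from limma (line) for each of the 10 probesets (vertical axis). *LPXN* lies at -1.46, and the intervals of the other 9 probesets, which span 0, reach no lower than -0.44.

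Other genes of focal adhesions and the actin cytoskeleton showed a few changes in both directions. Of 134 such genes on 8 lists of roles, 90 were measured, each taken at its probeset with the highest mean. Among these, limma called 7 higher and 3 lower in USF1 cells (adjusted p-value under 0.05), which is 7.78% and 3.33% of them, where 5.18% of all 9586 named genes rose and 8.89% fell (before adjustment, 12 and 8 of the 90 had a p-value under 0.05). The median difference was 0.005 over the 90 genes and -0.079 over all genes. Without Empty vector replicate 1, 10 rose and 2 fell, and so they did with arrays centred on their medians. With the actin 5' minus 3' value as a covariate 3 rose and 1 fell, and 395 of all probesets were called, against 1974 without it. *ACTA2*, *AJUBA* and *ITGA6* were called without each array in turn, and the other 7 calls were each lost without at least 4 of the 6 arrays. *ACTA2*, *ITGA6*, *FERMT1*, *TNS3* and *DOCK1* come from dim probesets, which a filter on the dimmest 25% of probesets removes.

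Of the genes that act at the membrane, the receptor *ITGA6*, the integrin alpha chain for laminin, rose most. Its log2 value was 4.36, 4.11 and 4.03 in Empty vector and 4.99, 4.97 and 4.83 in USF1 arrays, with all USF1 arrays above all Empty vector arrays. The difference was 0.76 (SE 0.11, adjusted p-value = 0.00671 from limma), and its second probeset was at 0.48 (SE 0.18, adjusted p-value = 0.111 from limma). It was the 1 call among 8 integrin subunits measured (12.5%, where 5.18% of all named genes were called higher). *ITGB1*, the beta chain shared by many integrins, which is named here after its values were seen, had a difference of -0.002 (SE 0.08). Of 5 genes of integrin activation, *FERMT1* (kindlin-1), which helps talin to activate integrins, rose by 0.51 (SE 0.12, adjusted p-value = 0.0322 from limma), and its values were 3.79, 3.96 and 3.87 in Empty vector and 4.63, 4.35 and 4.18 in USF1 arrays.

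Of 19 adaptors and regulators of small GTPases limma called 4, with 3 higher (15.8%) and 1 lower (5.26%). Over all named genes 5.18% were called higher and 8.89% lower, and nothing is read from so small a count, here or in the other lists. *TNS3*, a tensin that binds integrin tails and actin, rose by 0.48 (SE 0.13, adjusted p-value = 0.0488 from limma). *RSU1*, a partner of the adaptor PINCH, rose by 0.35 (SE 0.09, adjusted p-value = 0.0454 from limma), and *ARHGEF6*, an exchange factor for Rac that sits in complexes bound to paxillin, by 0.33 (SE 0.08, adjusted p-value = 0.0376 from limma). *DOCK1*, an exchange factor for Rac that acts below the adaptor CRK, fell by 0.53 (SE 0.14, adjusted p-value = 0.0461 from limma), from 5.26, 5.07 and 4.78 in Empty vector to 4.7, 4.48 and 4.34 in USF1 arrays. All 4 lie near the threshold, and *DOCK1* was no longer called with arrays centred on their medians. With the actin 5' minus 3' value as a covariate *DOCK1* was at -0.31 (limma adjusted p-value = 0.292), and the calls of *RSU1* (adjusted p-value = 0.172) and *ARHGEF6* (adjusted p-value = 0.159) were lost too, as were those of *FERMT1* (adjusted p-value = 0.166) and *FHL2* (adjusted p-value = 0.109). Of 12 kinases and phosphatases limma called 0 (0 higher and 2 lower where p-values under 0.05 are taken without adjustment).

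Among 16 measured LIM proteins of the zyxin family and others, limma called 1 lower and 1 higher (6.25% each). Over all named genes 8.89% were called lower and 5.18% higher. *AJUBA*, a relative of zyxin that also shuttles to the nucleus, had log2 values of 6.89, 6.9 and 6.73 in Empty vector and 6.08, 6.24 and 5.77 in USF1 arrays. Every USF1 array lay below every Empty vector array. The difference was -0.81 (SE 0.13, adjusted p-value = 0.00933 from limma), and the call was lost with the actin 5' minus 3' value as a covariate (-0.68, adjusted p-value = 0.0681). *FHL2*, which is built of LIM domains and binds integrins and transcription factors, rose by 0.37 (SE 0.08, adjusted p-value = 0.0276 from limma). *PDLIM5*, an alpha-actinin-binding LIM protein named after its values were seen, did not pass at its brightest probeset (0.30, SE 0.10, adjusted p-value = 0.0776 from limma), and 2 of its 5 probesets were called, both higher in USF1 cells.

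The list of actin and smooth muscle contractile genes also holds their regulators of the SRF pathway and the targets *CCN1* and *CCN2*. Of its 19 measured genes limma called 1 lower and 1 higher (5.26% each). Over all named genes 8.89% were called lower and 5.18% higher. Smooth muscle actin (*ACTA2*) was at 5.34, 5.21 and 4.84 in Empty vector and at 3.88, 3.71 and 3.93 in USF1 arrays, and fell by 1.29 on the log2 scale (SE 0.14, limma adjusted p-value = 0.00251). In USF1 arrays *ACTA2* lay about as low as *LPXN*, where RMA differences are compressed. Caldesmon (*CALD1*), which binds actin and tropomyosin, rose by 0.54 (SE 0.12, adjusted p-value = 0.0281 from limma), from 8.01, 7.75 and 7.61 to 8.39, 8.18 and 8.41, and 3 of its 4 probesets were called. Of 10 actin crosslinkers and membrane linkers limma called 0 (0 higher and 1 lower where p-values under 0.05 are taken without adjustment). The largest difference among them was that of profilin *PFN2*, at -0.27 (SE 0.09, adjusted p-value = 0.0882 from limma).

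**Figure D4:**
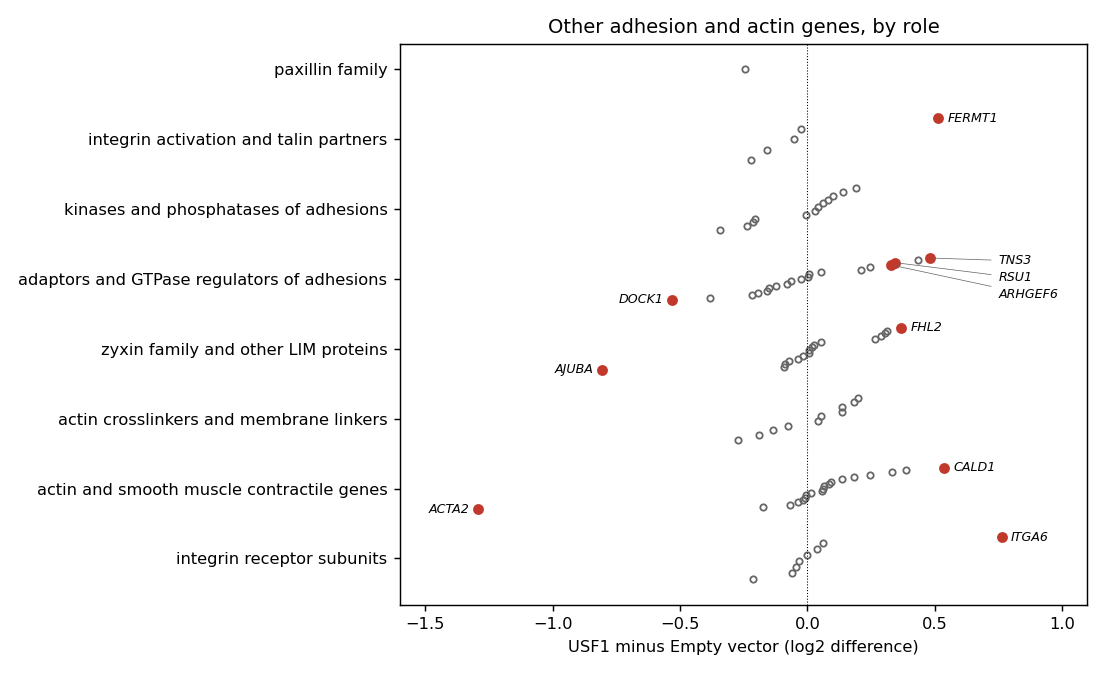
Mean of USF1 minus mean of Empty vector arrays on the log2 scale (horizontal axis) of each measured gene on 8 lists of adhesion and actin genes (rows, points spread vertically for sight), the 8 genes of the main set left out. Red points mark adjusted p-values under 0.05 from limma, and *ACTA2*, *AJUBA* and *DOCK1* are the 3 red points left of 0.

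*LPXN* lies on chromosome 11 of GRCh38.p14 next to *ZFP91*, which encodes a zinc finger ubiquitin ligase and is read the other way. The annotated start of *ZFP91* lies 930 bases from the first *LPXN* start and 3207 bases from the second. *ZFP91* was picked for its place, after the fall of *LPXN* was known. Its brighter probeset had log2 values of 7.39, 7.43 and 7.31 in Empty vector and 7.34, 7.33 and 7.23 in USF1 arrays, groups that overlap, and limma gave -0.07 for the difference (SE 0.08, adjusted p-value = 0.588). Its dimmer probeset was at 3.52, 5.19 and 5.04 and at 5.15, 5.12 and 5, where Empty vector replicate 1 alone was low, and its difference of 0.50 had an SE of 0.37 (adjusted p-value = 0.394 from limma). The 11 other protein-coding genes nearest to the pair, most of them for olfactory receptors or glycine acyltransferases, are not analysed here.

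Probesets of genes outside the set were ranked by how closely their values resembled those of *LPXN*. Likeness was measured as Pearson's correlation with *LPXN* over the 6 arrays, which is mostly set by the difference between the groups and is given as a description. The highest values were those of *TLCD5* (0.9995), *FBXO22*, an F-box protein (0.9982), *NFKB1*, a subunit of NF-kappaB (0.9981), *MKKS*, a chaperonin-like protein of the cilium base (0.9980), and *DCP1B*, a factor of mRNA decapping (0.9980). All 5 were lower in USF1 cells, by between -0.912 (*MKKS*) and -0.282 (*NFKB1*), and all shared with *LPXN* the lowest value in USF1 replicate 3. Both traits follow largely from the choice by correlation. USF1 replicate 3 was also the lowest USF1 array in 46.1% of all probesets. The lowest correlations were those of *MROH6* (-0.9961), *MOB3B* (-0.9960) and *GGA2*, an adaptor of Golgi sorting (-0.9958). With so few arrays, 723 other probesets had a correlation over 0.95 and 203 one under -0.95. Within the set, the correlation with *LPXN* was -0.12 for *PXN*, 0.19 for *VCL*, 0.43 for *TLN1*, -0.17 for *ACTN1* and 0.13 for *ACTN4*. It was 0.72 and 0.45 for the *PTK2* probesets and -0.58 and 0.91 for those of *ZYX*.

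**Figure D5:**
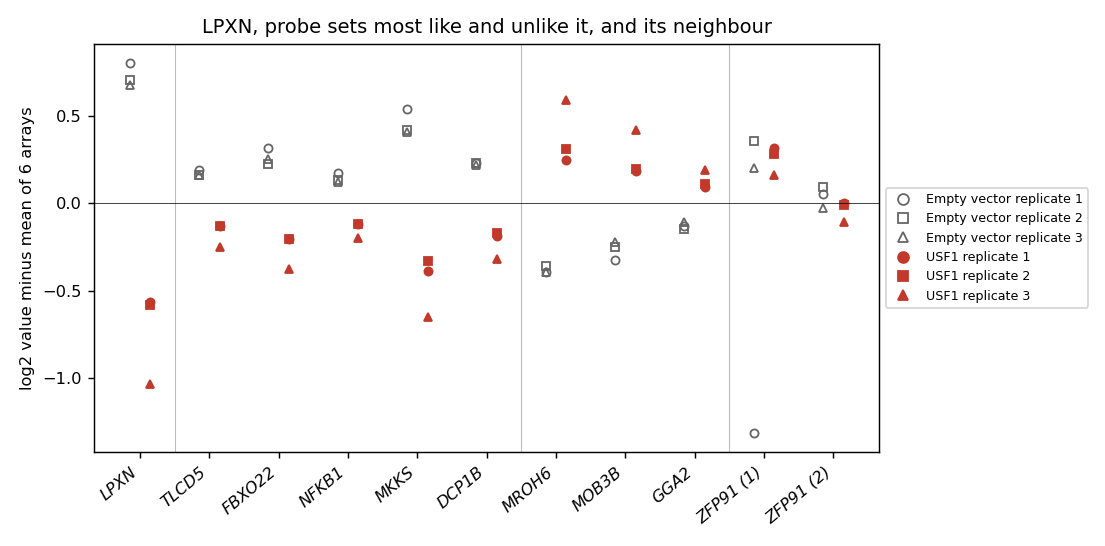
Log2 value minus the mean of 6 arrays (vertical axis) in each Empty vector array (open grey) and USF1 array (filled red) for *LPXN*, the 5 probesets most like it, the 3 most unlike it and the 2 probesets of its neighbour *ZFP91* (horizontal axis). The first 6 lie higher in Empty vector arrays and the next 3 lower, and the *ZFP91* groups overlap.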

How the data were processed

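Gene expression was measured on 3 USF1 and 3 Empty vector Affymetrix arrays, assigned to groups and replicates by their titles. The authors deposited log2 expression values. They ran justRMA in R 2.8.0 on a probe set definition without unspecific probes, dropped probesets that had too few probes or were mostly called absent, and corrected batch effect with ComBat, which reduces the spread between arrays. Which arrays formed a batch is not stated. How the correction affects p-values was not tested.

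From these values, the difference of the groups was fitted over all 16569 probesets with lmFit and eBayes (limma 3.58.1, R 4.3.3) without covariates, with Benjamini-Hochberg adjustment over all probesets and a threshold of 0.05. Intervals are 95% intervals from the moderated spread. The procedure was tested on simulated data. Gene names came from the platform annotation, updated through RefSeq gene identifiers; 15099 probesets had 1 gene, 570 several and 900 none in that table. Names were given to genes by rule: all 8 members, *TGFB1I1*, *PTK2B* and *ACTA2*, up to 4 called genes of each list by adjusted p-value (or the largest difference where none passed, 1 of which is not reported here), and the 5 probesets most and 3 least correlated with *LPXN*. Members, lists and rule were chosen with earlier results of these data known. Markers and lists were written from general knowledge. Alternatives were the methods' t-test, other priors, array weights, centring, quantile normalization, a filter on low values, the mean of a gene's probesets, a narrower promoter window, an actin covariate, the replicate number as a block, each array left out in turn and, added after seeing the data, dropping the 33 control probesets.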

Additional observations from a re-analysis of the deposited data

How the results depend on the processing

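The call of *LPXN* was made under the other limma settings that kept its probeset. Leaving out each array in turn was among them, with 1 probeset of the set called each time. No other probeset of the set was called under any of these settings. As this contrast chose the set, these calls are a description and no support for the fall. With the methods' t-test 0 of the 10 probesets passed after Benjamini-Hochberg adjustment, with unequal or with equal variances. Over all 16569 probesets 1 passed with unequal and 160 with equal variances, so nothing is read from the 0. Without adjustment, 2 of the 10 (*LPXN* and a *ZYX* probeset) had a p-value under 0.05 in each form. The authors listed probesets with t-test p-values up to 0.05, and their list holds the *LPXN* probeset. In the limma fit without the dimmest 25% of probesets 0 of the 10 passed too, since that filter drops *LPXN*, *PXN* and *TLN1*. Of the 90 other adhesion and actin genes 10 were called with limma, and 0 with either form of the methods' t-test (18 with unequal and 24 with equal variances at an unadjusted p-value under 0.05, and 20 with limma). The count was 18 with array weights, 4 with the actin covariate and 5 with the dimmest 25% of probesets left out, which keeps 72 of these genes. Over all probesets 1974 were called in the main fit, 3688 with array weights, 395 with the actin covariate and 1721 with that filter. Among the 90 genes, the count was between 3 and 12 when single arrays were left out. It was 3 when USF1 replicate 1, USF1 replicate 3 or Empty vector replicate 2 was dropped. Dropping Empty vector replicate 3 gave 4. Over all probesets, such fits called between 369 (USF1 replicate 3 dropped) and 2222 (USF1 replicate 2 dropped). With arrays centred on their medians or quantile normalized again, 10 of the 90 genes rose and 2 fell. Over all probesets these settings called 1856 and 1935. The cause of these shifts was not tested, apart from the genes that the filter removes. The share of promoter windows with CACGTG was 4.37% in the 150 bases nearest the start. Replicate numbers were not taken to pair the arrays, as no pairing is stated. Deviations of same-numbered arrays correlated by 0.096, 0.246 and 0.129 over all probesets, which does not settle whether they were paired. With the replicate number as a block, 1 probeset of the set and 13 of the other genes were called, and 2875 of all probesets.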
